A study of Mus musculus with 19 samples.

Results

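Macrophages and other antigen-presenting cells are marked by a common set of genes, and 34 such genes were followed here in RNA from sorted sensory neurons of the dorsal root ganglion (DRG). The members were taken by gene name. Of the 34, 28 were measured, out of 12629 genes, and Trem2, Mrc1, Cd163, Cx3cr1, Cd52 and Msr1 were not analysed here. By role, the measured members are 3 chains of complement C1q, 4 genes of class II antigen presentation, 4 of 5 Fc and DAP12 receptor genes, 4 of 5 lineage factors and receptors, 1 of 4 scavenger and pattern receptors, 7 genes of the phagosome and lysosome, and 5 of 6 leukocyte surface and cytoskeleton genes.

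There were 19 RNA-seq libraries, each from GFP-positive cells sorted by fluorescence-activated cell sorting (FACS) from left C5–C8 DRGs at 8 weeks after injection of an adeno-associated virus (AAV). All 4 groups carried AAV5 and a GFP label. GFP-naive (n = 5) received AAV5-fGFP under the CMV promoter, with intact roots, and GFP-crush (n = 4) received the same virus and a crush of the left C5–C8 dorsal roots. α9k1-naive (n = 6) received AAV5-α9-V5 under the CAG promoter together with AAV5-kindlin1-GFP under the CMV promoter, which give α9 integrin and its activator kindlin-1, and α9k1-crush (n = 4) received both viruses and the crush. The study's methods describe adult male Lewis rats, the sample labels C57BL/6 mice, and the reads were aligned to the mouse genome. Neither promoter is restricted to neurons, and the labels do not say how many animals went into a library. The α9k1 groups differ from the GFP groups by integrin, kindlin-1, a second virus, its promoter and tag, and these cannot be told apart. Below, α9k1 stands for all of them.

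In resting tissue, macrophages take up debris and dying cells through Fc and scavenger receptors, digest them in the phagosome and lysosome, and load peptides on class II molecules, whose chaperone is the invariant chain Cd74. They are also a main source of C1q, the molecule that starts the classical complement pathway. DRGs hold resident macrophages close to neuronal cell bodies, and macrophages gather there after nerve injury.

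Depth ran from 36.4 to 87.6 M read pairs a library, and 47.5% to 54.1% of the reads could be aligned. Fermt1, which encodes kindlin-1, had log2 values of 0.46 to 0.80 in GFP-naive, 0.42 to 0.72 in GFP-crush, 5.18 to 6.005 in α9k1-naive and 6.42 to 7.73 in α9k1-crush, and so was high in the α9k1 groups alone. Itga9, which encodes α9 integrin, had 1.77 to 2.40 in GFP-naive, 0.90 to 1.92 in GFP-crush, 5.53 to 7.51 in α9k1-crush and 3.52 to 5.16 in 5 of the α9k1-naive libraries, but 2.38 in α9k1-naive 2, within the range of GFP-naive. Neither gene checks the crush label. Without α9k1-naive 2, 17 members were called higher in α9k1-naive versus GFP-naive, 2 higher and 0 lower in α9k1-crush versus α9k1-naive, and 0 higher and 3 lower in the interaction. The share of all genes called in this fit is not given here. The 15 neuron markers were all measured. GFP-crush 2 was the lowest of its group for 20 of the 28 members, and α9k1-crush 2 was the highest of its group for 25 of 28. The 3 covariates of the fit, which are principal components of library metrics, differ between groups, with 34.5%, 52.2% and 74.5% of their variance between groups, and the third lies at -3.56 ± 0.83 (SD, n = 4) in α9k1-crush against -0.32 ± 1.28 (SD, n = 4) in GFP-crush. The 2 crush groups are therefore compared both with and without the covariates below.

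Values of single libraries are the log2 values that the authors deposited. The log2FC is a difference at equal covariates from a limma fit to all 19 libraries, given ± its standard error, and a gene is called at an adjusted p under 0.1 (Benjamini-Hochberg over 12629 genes). The p-values measure only the spread between these libraries.

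Without injury, α9k1 went with more RNA of most members. The comparison of α9k1-naive with GFP-naive asks what goes with α9k1 in the absence of crush. By limma, 16 of 28 members were called higher and 0 lower. Over all genes, 11.4% were called higher and 17.6% lower. All 3 C1q chains rose, by 2.98- to 3.45-fold, all 4 class II genes by 2.77- to 3.92-fold, and the macrophage membrane protein Ms4a7 by 6.80-fold. The median log2FC of the 28 members was 0.93, against -0.08 over all genes. Of the members, 16 did not overlap between the groups, all with α9k1-naive above, where 8.43% of all genes lay above and 13.2% below in this way. At an unadjusted p under 0.05, 19 members differed, and 34.9% of all genes. The members are bulk values of a sort, so more cells of a type and more RNA per cell cannot be told apart.

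After crush in GFP animals, more members rose. In GFP-crush versus GFP-naive, which asks what the crush does without the integrin, 22 of 28 members were called higher and 0 lower by limma, against 7.39% and 15.7% of all genes. The 4 class II genes rose by 5.57- to 6.57-fold, Ms4a7 by 7.46-fold and the C1q chains by 3.72- to 3.93-fold. The median log2FC was 1.26, against -0.08 over all genes. The groups did not overlap for 22 members, all with GFP-crush above, and for 7.59% of all genes above and 12.2% below. With the samples centred on their medians the median over all genes went from -0.08 to 0.06 and the shares of all genes to 14.5% higher and 9.34% lower, while 22 members were called higher and 0 lower. Without GFP-crush 2, 21 members were called higher, and the share of all genes in that fit is not given. In a fit to the 2 groups alone 18 of the 22 were called, and Spi1, Cd14, Mpeg1 and Laptm5 were not (adjusted p = 0.198, 0.134, 0.234 and 0.488), while 2.07% of all genes were called higher.

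The 2 comparisons share the GFP-naive libraries, so their calls are not independent of each other. The 16 members called in α9k1-naive are C1qa, C1qb, C1qc, Cd74, H2-Aa, H2-Ab1, H2-Eb1, Tyrobp, Fcer1g, Spi1, Ms4a7, Aif1, Cd14, Cd68, Lyz2 and Cyba, and all 16 were also called in GFP-crush. A further 6 were called in GFP-crush versus GFP-naive alone of the pair, namely Fcgr3, Fcgr2b, Mpeg1, Cd53, Laptm5 and Lcp1, and whether their 2 changes differ was not tested. Csf1r, Ctss, Ptprc and Coro1a were called in no comparison. GFP-naive had the lowest group mean for 26 of 28 members. The highest mean was in GFP-crush for 17 members, in α9k1-crush for 8 and in α9k1-naive for 3.

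**Figure D1:**
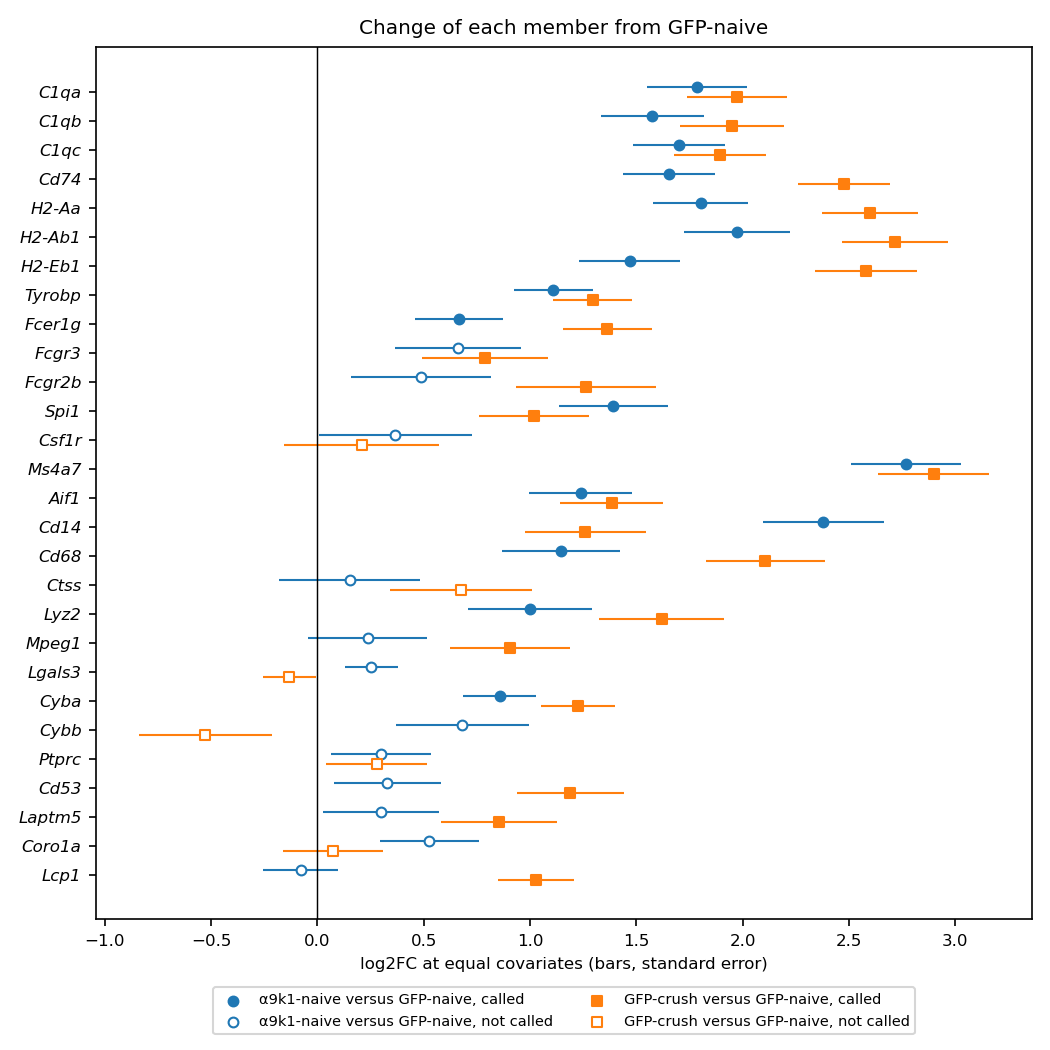
Log2FC of each member at equal covariates (horizontal axis, bars are standard errors) in α9k1-naive versus GFP-naive (blue circles) and GFP-crush versus GFP-naive (orange squares), with called members filled. All filled points lie to the right of 0, 16 in the first comparison and 22 in the second, and Ms4a7 lies farthest right in both.

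**Figure D2:**
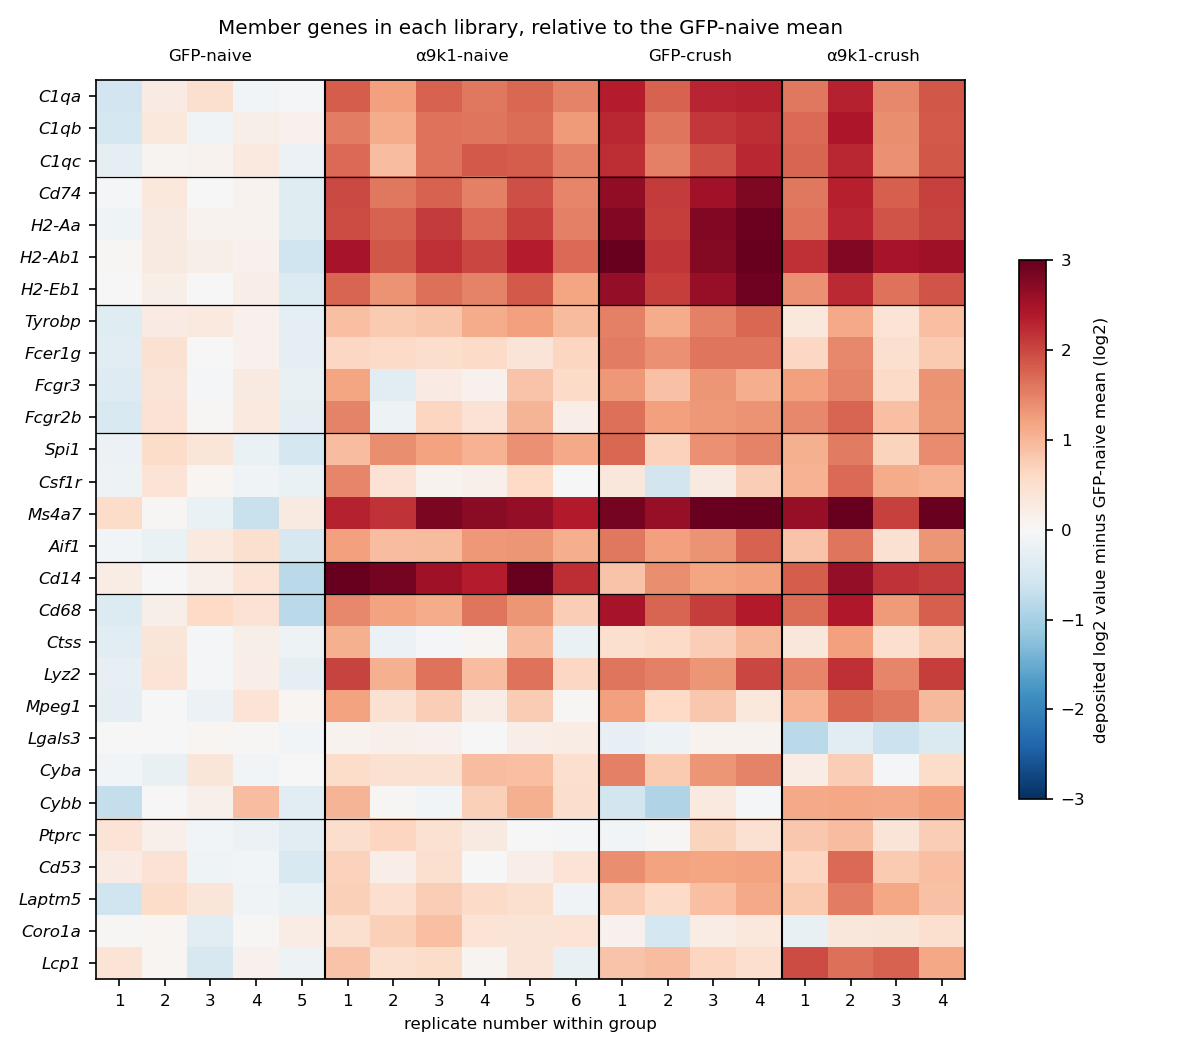
Deposited log2 value of each of the 28 members (rows, divided by role) in each of the 19 libraries (columns, by group and replicate), minus the gene's GFP-naive mean, in red where higher and blue where lower; the colour ends at 3. The C1q and class II rows are red in every library outside GFP-naive, whereas Lgals3 stays pale and turns blue in α9k1-crush.

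C1qa, C1qb and C1qc encode the 3 chains of C1q and lie next to each other on the chromosome. C1qa had log2 values of 4.43, 5.23, 5.47, 4.91 and 4.92 in GFP-naive and from 6.22 to 6.81 with a median of 6.64 in α9k1-naive. After crush its values were 7.36, 6.76, 7.29 and 7.30 in GFP-crush and 6.58, 7.30, 6.44 and 6.85 in α9k1-crush. Every library outside GFP-naive lay above every GFP-naive library, and the other 3 groups met or overlapped. Its log2FC was 1.79 ± 0.23 in α9k1-naive (adjusted p = 7.35e-05, limma) and 1.97 ± 0.24 in GFP-crush (adjusted p = 0.000145), and the exact permutation test of the group means gave its smallest possible p in both, 0.00216 and 0.00794.

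C1qb had 4.49, 5.35, 4.93, 5.20 and 5.15 in GFP-naive, from 6.14 to 6.71 with a median of 6.59 in α9k1-naive, 7.28, 6.64, 7.14 and 7.25 in GFP-crush and 6.71, 7.45, 6.43 and 6.87 in α9k1-crush. For C1qc the values were 4.26, 4.64, 4.66, 4.86 and 4.37 in GFP-naive, from 5.49 to 6.39 with a median of 6.22 in α9k1-naive, 6.78, 6.07, 6.49 and 6.81 in GFP-crush and 6.31, 6.82, 5.93 and 6.41 in α9k1-crush. Both repeated the order of C1qa, with GFP-naive alone at the bottom. C1qb changed by 1.58 ± 0.24 in α9k1-naive and 1.95 ± 0.25 in GFP-crush (adjusted p = 0.00032 and 0.000233, limma), and C1qc by 1.70 ± 0.22 and 1.89 ± 0.22 (adjusted p = 5.51e-05 and 0.000114).

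The 250 bases before the gene start (RefSeq, GRCm38.p6) are shown in the mouse genome, to which the reads were aligned, for C1qb and C1qc, since the chains moved together. C1qa moved with them but matched no promoter in RefSeq. GAGGAA, or TTCCTC on the other strand, holds the core letters bound by the macrophage factor PU.1, the product of the member Spi1, and is in capitals. C1qb (chr4:136886201-136886450, minus strand) has 1 match that begins 30 bases before the start, and C1qc (chr4:136892915-136893164, minus strand) has 1 that begins 193 bases before it. The authors' gene positions put the C1qc start at 136893065, inside the C1qc window, so this distance depends on the annotation.
C1qb: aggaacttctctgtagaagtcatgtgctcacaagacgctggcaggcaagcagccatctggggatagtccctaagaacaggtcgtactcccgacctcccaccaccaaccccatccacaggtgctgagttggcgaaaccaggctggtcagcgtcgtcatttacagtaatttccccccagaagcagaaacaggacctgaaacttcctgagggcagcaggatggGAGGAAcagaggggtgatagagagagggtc
C1qc: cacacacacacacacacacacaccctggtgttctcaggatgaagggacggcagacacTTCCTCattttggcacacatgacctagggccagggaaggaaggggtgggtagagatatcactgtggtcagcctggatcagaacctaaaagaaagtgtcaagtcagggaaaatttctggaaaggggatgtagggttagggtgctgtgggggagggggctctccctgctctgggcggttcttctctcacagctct
Of the 28 measured members 21 matched a promoter in RefSeq, and 9 of these hold GAGGAA or TTCCTC, where 23.3% of all 32851 promoters of the same length do. A match is a run of letters in this window and was not tested as a binding site.

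The class II genes encode the α and β chains of the peptide receptor (H2-Aa, H2-Ab1 and H2-Eb1) and the invariant chain Cd74, which guides it to the compartment where it is loaded. Class II genes are polymorphic and alike in sequence, so how reads were split among the chains is uncertain. Cd74 had 8.48, 8.84, 8.54, 8.63 and 8.17 in GFP-naive and from 9.99 to 10.50 with a median of 10.21 in α9k1-naive. After crush it had 11.20, 10.64, 11.06 and 11.33 in GFP-crush and 10.13, 10.86, 10.33 and 10.59 in α9k1-crush. GFP-naive lay apart below the rest, and GFP-crush and α9k1-crush overlapped through a single pair of libraries, GFP-crush 2 and α9k1-crush 2. Cd74 rose by 1.66 ± 0.22 on the log2 scale in α9k1-naive and 2.48 ± 0.22 in GFP-crush (adjusted p = 7.31e-05 and 1.74e-05, limma).

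H2-Aa had 5.59, 5.99, 5.83, 5.82 and 5.36 in GFP-naive, from 7.23 to 7.81 with a median of 7.58 in α9k1-naive, 8.50, 7.80, 8.51 and 8.66 in GFP-crush and 7.35, 8.002, 7.60 and 7.74 in α9k1-crush. Values of H2-Ab1 were 6.30, 6.54, 6.45, 6.40 and 5.69 in GFP-naive, from 7.98 to 8.74 with a median of 8.37 in α9k1-naive, 9.25, 8.41, 9.03 and 9.26 in GFP-crush and 8.46, 9.06, 8.75 and 8.81 in α9k1-crush. H2-Eb1 stood at 6.56, 6.74, 6.57, 6.76 and 6.14 in GFP-naive, from 7.74 to 8.40 with a median of 8.13 in α9k1-naive, 9.19, 8.63, 9.17 and 9.47 in GFP-crush and 7.94, 8.80, 8.18 and 8.43 in α9k1-crush. In all 3, the GFP-naive libraries were the 5 lowest of the 19. In α9k1-naive their log2FC was 1.80 ± 0.22, 1.97 ± 0.25 and 1.47 ± 0.24 (adjusted p = 4.42e-05, 5.35e-05 and 0.000485, limma). In GFP-crush it was 2.60 ± 0.22, 2.72 ± 0.25 and 2.58 ± 0.24 (adjusted p = 1.74e-05, 1.87e-05 and 1.87e-05). Each of the 4 class II genes was called in all 19 fits that left out 1 library, in both comparisons.

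The promoters of 2 class II chains are given because these genes moved together. H2-Ab1 and Cd74 moved with them, but H2-Ab1 matched no promoter and Cd74 is not among the members found with the letters below. The capitals mark ATTGG, the core letters of the Y box of class II promoters, or CCAAT, the same letters on the other strand. H2-Aa (chr17:34287824-34288073, minus strand) has 1 match that begins 48 bases before the start, and H2-Eb1 (chr17:34305617-34305866, plus strand) has 2, at 59 and 35 bases before it.
H2-Aa: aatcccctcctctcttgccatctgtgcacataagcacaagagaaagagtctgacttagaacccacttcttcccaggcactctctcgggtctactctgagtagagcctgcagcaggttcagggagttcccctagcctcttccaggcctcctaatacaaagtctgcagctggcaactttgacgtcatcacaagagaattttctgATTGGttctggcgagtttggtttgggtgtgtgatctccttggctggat
H2-Eb1: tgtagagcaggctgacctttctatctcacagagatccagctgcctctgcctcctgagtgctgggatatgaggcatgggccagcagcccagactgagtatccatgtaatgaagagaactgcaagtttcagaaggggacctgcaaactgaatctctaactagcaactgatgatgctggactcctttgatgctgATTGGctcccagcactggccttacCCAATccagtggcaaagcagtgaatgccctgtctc
The letters occur in 8 of the 21 members with a promoter and in 33.8% of all promoters, a share near that background. The longer run CTGATTGG, chosen after the sequences had been seen, is in both class II promoters, in 2 of 21 members and in 3.83% of all promoters on either strand.

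Among the receptor genes, Tyrobp encodes the adaptor DAP12 and Fcer1g the common γ chain of Fc receptors, which pass on signals from receptors that bind antibody or debris. Tyrobp had 5.02, 5.63, 5.67, 5.51 and 5.08 in GFP-naive, from 6.16 to 6.61 with a median of 6.31 in α9k1-naive, 6.90, 6.49, 6.89 and 7.10 in GFP-crush and 5.70, 6.53, 5.80 and 6.29 in α9k1-crush. For Fcer1g the values were 5.17, 5.98, 5.52, 5.65 and 5.25 in GFP-naive, from 5.91 to 6.16 with a median of 6.08 in α9k1-naive, 7.06, 6.89, 7.13 and 7.13 in GFP-crush and 6.15, 6.96, 5.99 and 6.29 in α9k1-crush. Apart from GFP-crush 2, the GFP-crush libraries had more Tyrobp than all others, and the Fcer1g values of α9k1-naive overlapped those of GFP-naive. Tyrobp rose by 1.11 ± 0.18 in α9k1-naive and 1.29 ± 0.19 in GFP-crush (adjusted p = 0.000591 and 0.00056, limma), and Fcer1g by 0.67 ± 0.21 and 1.36 ± 0.21 (adjusted p = 0.0333 and 0.000977). The Fcer1g call in α9k1-naive was lost without α9k1-naive 6, with an adjusted p of 0.117.

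Fcgr3, an activating Fc receptor, and Fcgr2b, the inhibitory one, are paralogs that may share reads. Fcgr3 had 2.30, 3.09, 2.66, 2.97 and 2.47 in GFP-naive, from 2.35 to 3.88 with a median of 3.11 in α9k1-naive, 3.99, 3.57, 4.02 and 3.78 in GFP-crush and 3.92, 4.18, 3.28 and 4.04 in α9k1-crush. Fcgr2b had 1.93, 2.82, 2.41, 2.68 and 2.09, then from 2.22 to 3.88 with a median of 2.92, then 4.04, 3.63, 3.69 and 3.73 and finally 3.81, 4.14, 3.28 and 3.71 in the same order of groups. In both genes the α9k1-naive libraries spread from the range of GFP-naive to that of GFP-crush. In GFP-crush, Fcgr3 rose by 0.79 ± 0.30 (adjusted p = 0.0873, limma) and Fcgr2b by 1.26 ± 0.33 (adjusted p = 0.0210), whereas in α9k1-naive they had 0.66 ± 0.30 and 0.49 ± 0.33 and were not called (adjusted p = 0.127 and 0.316). The Fcgr3 call held in only 6 of the 19 fits that left out 1 library, and was lost without any 1 of the 9 libraries of the groups compared, without α9k1-crush 1 or 4, and without α9k1-naive 3 or 6.

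Of the lineage genes, Spi1 encodes PU.1, the transcription factor that myeloid cells depend on, Csf1r the receptor for the growth factors Csf1 and Il34, Aif1 the calcium-binding protein Iba1 and Ms4a7 a membrane protein found on macrophages. Ms4a7 had 1.84, 1.33, 1.08, 0.62 and 1.55 in GFP-naive, from 3.44 to 4.12 with a median of 3.80 in α9k1-naive, 4.16, 3.89, 4.26 and 4.34 in GFP-crush and 3.89, 4.44, 3.34 and 4.24 in α9k1-crush. The GFP-naive libraries lay more than 1 log2 unit below every other library, and the other 3 groups overlapped. Its log2FC was 2.77 ± 0.26 in α9k1-naive and 2.90 ± 0.26 in GFP-crush (adjusted p = 2.49e-06 and 1.74e-05, limma), the largest of any member in each.

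Spi1 had 2.07, 2.80, 2.61, 2.05 and 1.73 in GFP-naive, from 3.18 to 3.64 with a median of 3.42 in α9k1-naive, 3.98, 2.95, 3.63 and 3.75 in GFP-crush and 3.31, 3.81, 2.92 and 3.67 in α9k1-crush. Aif1 stood at 5.65, 5.52, 6.01, 6.21 and 5.26 in GFP-naive, from 6.66 to 7.06 with a median of 6.89 in α9k1-naive, 7.31, 6.95, 7.07 and 7.50 in GFP-crush and 6.57, 7.33, 6.18 and 7.06 in α9k1-crush. Both were lowest in GFP-naive, though Aif1 of α9k1-crush 3 lay just below the highest GFP-naive library. Spi1 rose by 1.39 ± 0.26 in α9k1-naive and 1.02 ± 0.26 in GFP-crush (adjusted p = 0.00132 and 0.0182, limma), and Aif1 by 1.24 ± 0.24 and 1.38 ± 0.24 (adjusted p = 0.00195 and 0.00235). Csf1r had group means of 2.92 ± 0.24 (SD, n = 5) in GFP-naive, 3.37 ± 0.54 (SD, n = 6) in α9k1-naive, 3.11 ± 0.53 (SD, n = 4) in GFP-crush and 4.14 ± 0.32 (SD, n = 4) in α9k1-crush. It was not called, with intervals for the log2FC of -0.40 to 1.14 in α9k1-naive and -0.57 to 0.98 in GFP-crush (95%).

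Cd14, the co-receptor for bacterial lipopolysaccharide, was the only measured member of the scavenger and pattern receptors. It had 2.69, 2.48, 2.61, 2.88 and 1.67 in GFP-naive and from 4.67 to 5.64 with a median of 5.17 in α9k1-naive. Its crush values were 3.32, 3.86, 3.64 and 3.69 in GFP-crush and 4.28, 5.11, 4.63 and 4.57 in α9k1-crush. Unlike most members, Cd14 had its highest mean in α9k1-naive, whose libraries all lay above GFP-crush, and α9k1-crush also lay above GFP-crush without overlap. It rose by 2.38 ± 0.28 (5.20-fold, adjusted p = 2.99e-05, limma) in α9k1-naive and by 1.26 ± 0.28 (2.39-fold, adjusted p = 0.0105) in GFP-crush.

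**Figure D3:**
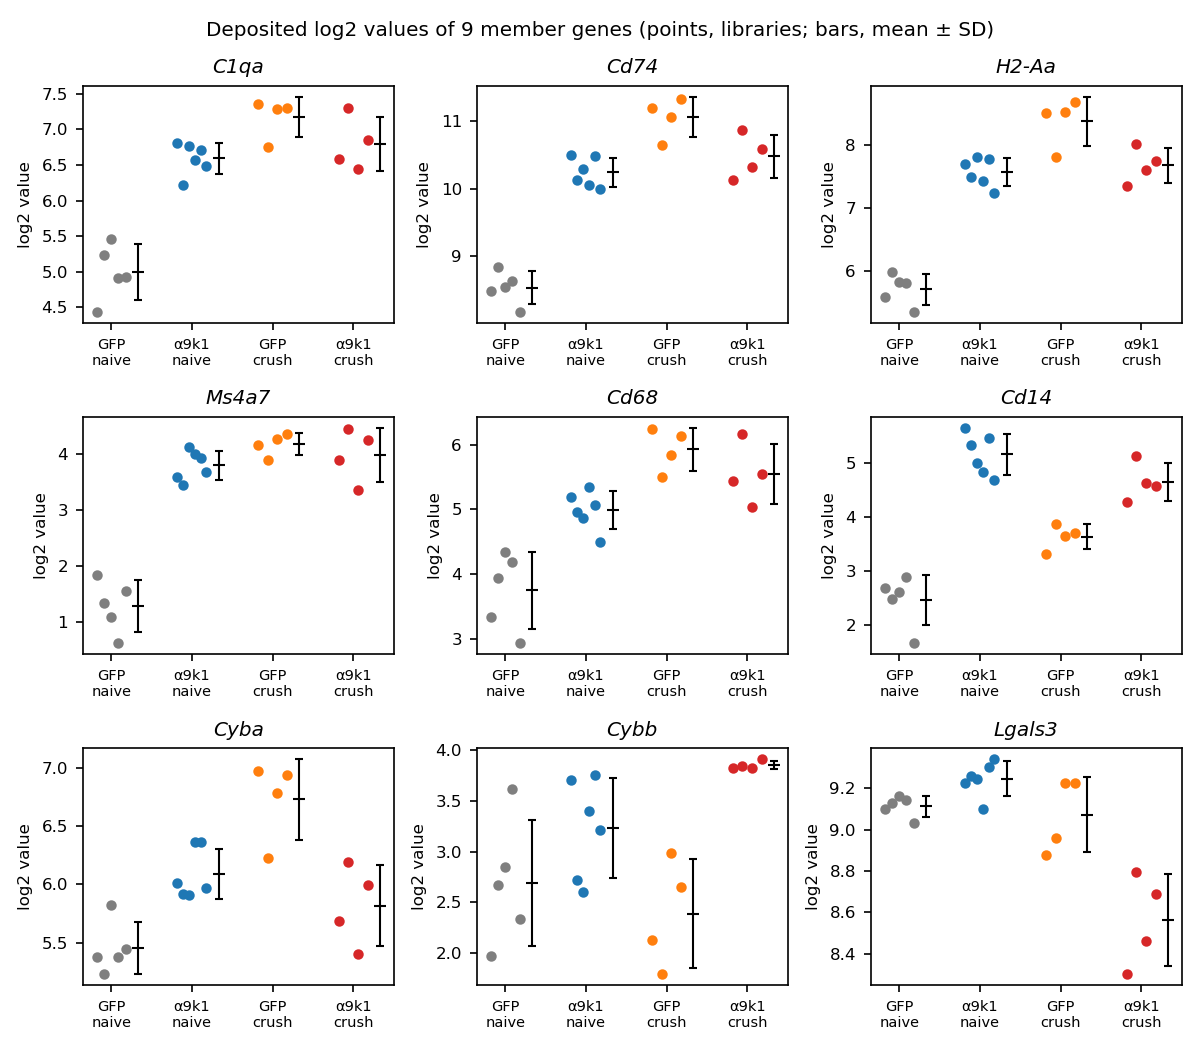
Deposited log2 values (vertical axes, each with its own range) of 9 members in the 4 groups, a point for each library, and the mean ± SD to its right. C1qa, Cd74, H2-Aa, Ms4a7 and Cd68 are lowest in GFP-naive, Cd14 is highest in α9k1-naive, Cybb lies between 3.83 and 3.92 in all α9k1-crush libraries, and Lgals3 is lowest in α9k1-crush.

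Of the phagosome and lysosome genes, Cd68 encodes a lysosomal membrane protein and Lyz2 the lysozyme of myeloid cells. Cd68 had 3.35, 3.94, 4.34, 4.19 and 2.94 in GFP-naive, from 4.49 to 5.35 with a median of 5.02 in α9k1-naive, 6.23, 5.50, 5.83 and 6.14 in GFP-crush and 5.44, 6.16, 5.04 and 5.55 in α9k1-crush. Lyz2, which has a close paralog in Lyz1, had 5.71, 6.37, 5.91, 6.17 and 5.67 in GFP-naive, from 6.59 to 8.002 with a median of 7.31 in α9k1-naive, 7.58, 7.48, 7.28 and 7.98 in GFP-crush and 7.43, 8.17, 7.44 and 8.04 in α9k1-crush. Again the GFP-naive libraries were the lowest, and Cd68 of GFP-crush lay above all of α9k1-naive. Cd68 rose by 1.15 ± 0.28 in α9k1-naive and 2.11 ± 0.28 in GFP-crush (adjusted p = 0.00869 and 0.000333, limma), and Lyz2 by 1.001 ± 0.29 and 1.62 ± 0.29 (adjusted p = 0.0241 and 0.00290).

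Cyba and Cybb encode the 2 membrane subunits of the phagocyte NADPH oxidase, and they did not move alike. Cyba had 5.38, 5.23, 5.82, 5.38 and 5.45 in GFP-naive, from 5.91 to 6.37 with a median of 5.99 in α9k1-naive, 6.98, 6.23, 6.78 and 6.94 in GFP-crush and 5.69, 6.19, 5.40 and 5.99 in α9k1-crush. Cybb had 1.97, 2.67, 2.85, 3.62 and 2.34 in GFP-naive, from 2.60 to 3.76 with a median of 3.31 in α9k1-naive, 2.13, 1.79, 2.99 and 2.65 in GFP-crush and 3.83, 3.84, 3.83 and 3.92 in α9k1-crush. Cyba was highest in GFP-crush and Cybb in α9k1-crush, where its 4 libraries differed by less than 0.1. Cyba rose by 0.86 ± 0.17 in α9k1-naive and 1.23 ± 0.17 in GFP-crush (adjusted p = 0.00249 and 0.000488, limma). The log2FC of Cybb was 0.68 ± 0.31 and -0.53 ± 0.31 in these comparisons and was not called (adjusted p = 0.134 and 0.270).

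Mpeg1 encodes the pore-forming perforin-2 of phagocytes, Ctss the protease cathepsin S and Lgals3 the lectin galectin-3, which sensory neurons also make. Mpeg1 had 2.30, 2.57, 2.40, 2.98 and 2.64 in GFP-naive, from 2.60 to 3.79 with a median of 3.17 in α9k1-naive, 3.82, 3.17, 3.38 and 2.89 in GFP-crush and 3.61, 4.29, 4.17 and 3.54 in α9k1-crush. Lgals3 had 9.10, 9.13, 9.16, 9.14 and 9.03 in GFP-naive, from 9.10 to 9.34 with a median of 9.25 in α9k1-naive, 8.88, 8.96, 9.23 and 9.22 in GFP-crush and 8.30, 8.79, 8.46 and 8.69 in α9k1-crush. The mean of Mpeg1 was highest in α9k1-crush, and all α9k1-crush libraries had less Lgals3 than every other library. Mpeg1 rose in GFP-crush by 0.91 ± 0.28 (adjusted p = 0.0441, limma), a call that was lost without GFP-crush 1 or without GFP-naive 2, and had 0.24 ± 0.28 in α9k1-naive. Ctss had group means of 4.98 ± 0.28 (SD, n = 5), 5.25 ± 0.57 (SD, n = 6), 5.69 ± 0.23 (SD, n = 4) and 5.69 ± 0.39 (SD, n = 4) in the same order and was not called.

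The leukocyte surface and cytoskeleton genes had the smallest median log2FC of the roles, 0.30 in α9k1-naive and 0.86 in GFP-crush. Cd53, a tetraspanin of leukocytes, had 3.25, 3.45, 2.88, 2.92 and 2.55 in GFP-naive, from 3.01 to 3.71 with a median of 3.32 in α9k1-naive, 4.40, 4.22, 4.18 and 4.22 in GFP-crush and 3.65, 4.71, 3.80 and 3.92 in α9k1-crush. Laptm5, a lysosomal protein of blood cells, had 3.18, 4.33, 4.14, 3.68 and 3.57 in GFP-naive, from 3.67 to 4.52 with a median of 4.33 in α9k1-naive, 4.54, 4.35, 4.69 and 4.91 in GFP-crush and 4.56, 5.31, 4.94 and 4.66 in α9k1-crush. Lcp1, the actin-bundling L-plastin, had 5.50, 5.15, 4.61, 5.22 and 4.94 in GFP-naive, from 4.87 to 5.93 with a median of 5.52 in α9k1-naive, 5.95, 6.01, 5.73 and 5.60 in GFP-crush and 7.03, 6.73, 6.86 and 6.25 in α9k1-crush. The α9k1-naive libraries overlapped GFP-naive in all 3 genes, and Lcp1 of α9k1-crush lay above every other library. In GFP-crush they rose by 1.19 ± 0.25, 0.86 ± 0.27 and 1.03 ± 0.18 (adjusted p = 0.00760, 0.0487 and 0.00229, limma), and in α9k1-naive they had 0.33 ± 0.25, 0.30 ± 0.27 and -0.08 ± 0.18. The Laptm5 call was lost without α9k1-naive 6 or without GFP-crush 4, and also in a fit to the 2 groups alone, where its log2FC was 0.33 (adjusted p = 0.488).

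The other 2 genes of this role were not called in any comparison. Ptprc, the pan-leukocyte antigen CD45, had a log2FC of 0.30 ± 0.24 in α9k1-naive and 0.28 ± 0.24 in GFP-crush, with intervals of -0.20 to 0.80 and -0.23 to 0.78 (95%). Coro1a, the actin regulator coronin-1A, which neurons also express, had 0.53 ± 0.23 and 0.07 ± 0.23 with intervals of 0.03 to 1.02 and -0.43 to 0.57. Coro1a was highest in α9k1-naive, where all 6 libraries, from 6.78 to 7.29, lay above the 5 of GFP-naive, which reached 6.62.

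Between the crush groups few members were called. In α9k1-crush versus GFP-crush, which asks what α9k1 adds to a crush, 1 of 28 members was called higher and 0 lower by limma. Over all genes, 0.728% were called higher and 0.182% lower. At an unadjusted p under 0.05, 2 members and 9.11% of all genes differed. The median log2FC of the members was 0.17, against 0.01 over all genes. The called member was Cybb, with 3.28 ± 0.68 (9.70-fold, adjusted p = 0.0407, limma). As deposited, its group means were 3.85 ± 0.04 (SD, n = 4) and 2.39 ± 0.53 (SD, n = 4), which differ by 1.46 with no overlap, so the value at equal covariates is much the larger. The call was lost without GFP-crush 2 or without GFP-naive 1. The exact permutation test of the means gave 0.0286 for Cybb, the smallest p that 4 against 4 libraries allow.

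What else is called between the crush groups depends on the covariates. Without them, 6 members were called higher (29.6% of all genes) and 7 lower (28.3%), shares that are near the background. Cd74, H2-Aa, H2-Eb1, Tyrobp, Fcer1g, Lgals3 and Cyba were then lower in α9k1-crush, with differences of -0.58, -0.69, -0.78, -0.77, -0.71, -0.51 and -0.91 on the log2 scale. Csf1r, Cd14, Cybb, Mpeg1, Ptprc and Lcp1 were higher, with differences of 1.03, 1.02, 1.46, 0.59, 0.44 and 0.90. The C1q chains changed sign, from -0.38, -0.21 and -0.17 between the means to 0.57 ± 0.51, 0.63 ± 0.53 and 1.03 ± 0.47 at equal covariates, with no call in either. Of the members called without covariates, Tyrobp, Cyba, Mpeg1, Ptprc and Lcp1 also changed sign, to 0.37 ± 0.40, 0.19 ± 0.37, -0.01 ± 0.61, -0.09 ± 0.51 and -0.61 ± 0.39 at equal covariates, and none of these was then called. In the deposited values 4 members of α9k1-crush lay above GFP-crush without overlap and 2 below, where 20.0% and 20.8% of all genes did. The intervals at equal covariates stay wide, for example -1.35 to 0.73 for H2-Aa and -0.94 to 1.69 for Cd14 (95%).

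With α9k1, few members were called after crush at equal covariates. In α9k1-crush versus α9k1-naive, 3 of 28 members were called higher and 1 lower by limma, against 4.47% and 5.27% of all genes. Without covariates 10 were called higher and 2 lower, against 28.5% and 27.1% of all genes, and the third covariate lies at 1.73 ± 1.71 (SD, n = 6) in α9k1-naive and -3.56 ± 0.83 (SD, n = 4) in α9k1-crush. Cybb rose by 2.07 ± 0.56, Cd68 by 1.84 ± 0.50 and C1qc by 1.22 ± 0.39 (adjusted p = 0.0443, 0.0449 and 0.0809), and Lgals3 changed by -0.72 ± 0.22 (adjusted p = 0.0704). The differences between the deposited means were 0.62, 0.56, 0.24 and -0.68. The groups did not overlap for 3 members above and 1 below, against 17.4% and 16.1% of all genes, and those above were Cybb, Laptm5 and Lcp1. None of the 4 calls held in all 19 fits that left out 1 library. Cd68 was lost only without α9k1-naive 4, Cybb without α9k1-naive 3, GFP-naive 1 or GFP-naive 4, Lgals3 in 8 and C1qc in 13 of the fits.

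Whether the α9k1 effect differs with crush was tested as the interaction, that is the α9k1 difference of crushed animals less that of naive ones. By limma, 4 of 28 members were called lower and 1 higher, against 0.847% and 1.35% of all genes. With median-centred samples the shares of all genes were 1.32% lower and 0.934% higher, and 6 members were called lower and 1 higher. The 4 were Ms4a7 at -3.03 ± 0.53, H2-Aa at -2.12 ± 0.46, Cd74 at -2.01 ± 0.45 and H2-Eb1 at -1.91 ± 0.49 (adjusted p = 0.0160, 0.0425, 0.0459 and 0.0832), all of them higher in α9k1-naive than in GFP-naive and not called between the crush groups. Cybb was higher, at 2.60 ± 0.64 (adjusted p = 0.0713). H2-Ab1 and Cd14 had -1.82 ± 0.51 and -2.003 ± 0.58 and were not called (adjusted p = 0.117 and 0.129).

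The median interaction of the members was -0.63. Ms4a7 was called in all 19 fits that left out 1 library, H2-Aa in 15, Cd74 in 14, Cybb in 11 and H2-Eb1 in 8. Without covariates 17 members were called lower and 0 higher, against 16.1% and 23.3% of all genes, and Cybb had 0.92 (adjusted p = 0.108). Leaving out α9k1-crush 2 gave 7 members called lower, leaving out α9k1-naive 1 gave 2, and leaving out α9k1-crush 4, α9k1-naive 4, GFP-naive 3 or GFP-naive 4 gave 1. The shares of all genes in these fits are not given, so moves of the counts are not read as results on the members. With quantile normalization Cd74 and H2-Eb1 were not called (adjusted p = 0.106 and 0.118).

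**Figure D4:**
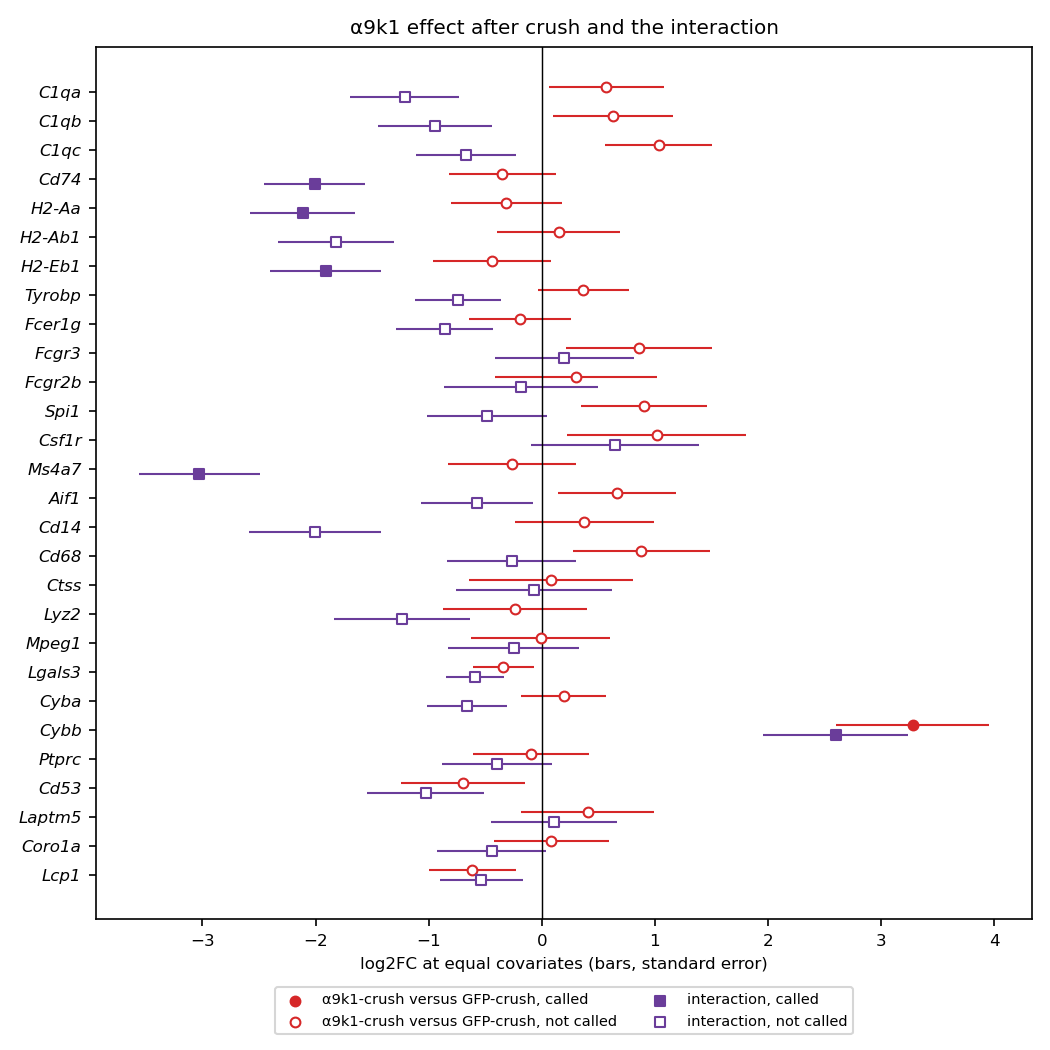
Log2FC of each member at equal covariates (horizontal axis, bars are standard errors) in α9k1-crush versus GFP-crush (red circles) and in the interaction (purple squares), with called members filled. Cybb is the 1 filled circle, at 3.28, and Ms4a7, H2-Aa, Cd74 and H2-Eb1 are the filled squares to the left of 0.

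Genes that work with the members were looked at as lists. Of 16 measured genes of class I presentation, the route that shows peptides from inside the cell, 9 were called higher and 1 lower in α9k1-naive versus GFP-naive, with a median log2FC of 0.63, and 10 higher and 1 lower in GFP-crush versus GFP-naive, with a median of 0.46. The peptide transporter gene Tap1 had 1.96 ± 0.15 in α9k1-naive and 1.28 ± 0.15 in GFP-crush, and the immunoproteasome gene Psmb8 had 0.95 ± 0.13 and 1.42 ± 0.13. The class I heavy chain H2-K1 rose by 1.01 ± 0.11 in α9k1-naive. In the interaction 3 of the 16 were called lower, Psmb8 at -1.34 ± 0.26, Tap1 at -1.26 ± 0.31 and Psmb9 at -1.13 ± 0.29.

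Class II loading and costimulation added 13 genes, 6 of them called higher and 2 lower in α9k1-naive and 8 higher and 1 lower in GFP-crush, with medians of 0.30 and 1.10. Cd83, a marker of activated antigen-presenting cells, rose by 3.60 ± 0.31 in α9k1-naive and 1.10 ± 0.31 in GFP-crush. The costimulatory gene Cd40 rose by 1.99 ± 0.35 and 3.76 ± 0.35, and Cd86 by 1.76 ± 0.29 and 2.27 ± 0.29. Ciita, the master regulator of class II genes, was not analysed here. In the interaction Cd40 had -4.32 ± 0.72 and Cd86 -2.35 ± 0.60, both called lower.

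Of 10 other complement genes, 3 rose and 1 fell in α9k1-naive, and 4 rose and 0 fell in GFP-crush. The central component C3 had 1.29 ± 0.40 and 1.58 ± 0.40, and C2 had 0.87 ± 0.19 and 0.76 ± 0.19. Of 48 further macrophage genes 23 were measured, and of these 12 rose and 0 fell in α9k1-naive, while 12 rose and 1 fell in GFP-crush. The myeloid factor Irf8 rose by 2.96 ± 0.36 and 3.03 ± 0.36, and the oxidase subunit Ncf1 by 2.22 ± 0.41 and 2.39 ± 0.41. Gpnmb, a gene of lipid-laden macrophages, rose by 2.47 ± 0.22 in α9k1-naive, and the Fc receptor gene Fcgr4 by 2.32 ± 0.31 in GFP-crush.

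Of the 2 measured growth factors that act on Csf1r, Csf1 rose by 1.17 ± 0.22 in α9k1-naive (adjusted p = 0.00147, limma). In GFP-crush both were called lower, Csf1 at -0.59 ± 0.22 and Il34 at -0.64 ± 0.19 (adjusted p = 0.0832 and 0.0383).

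**Figure D5:**
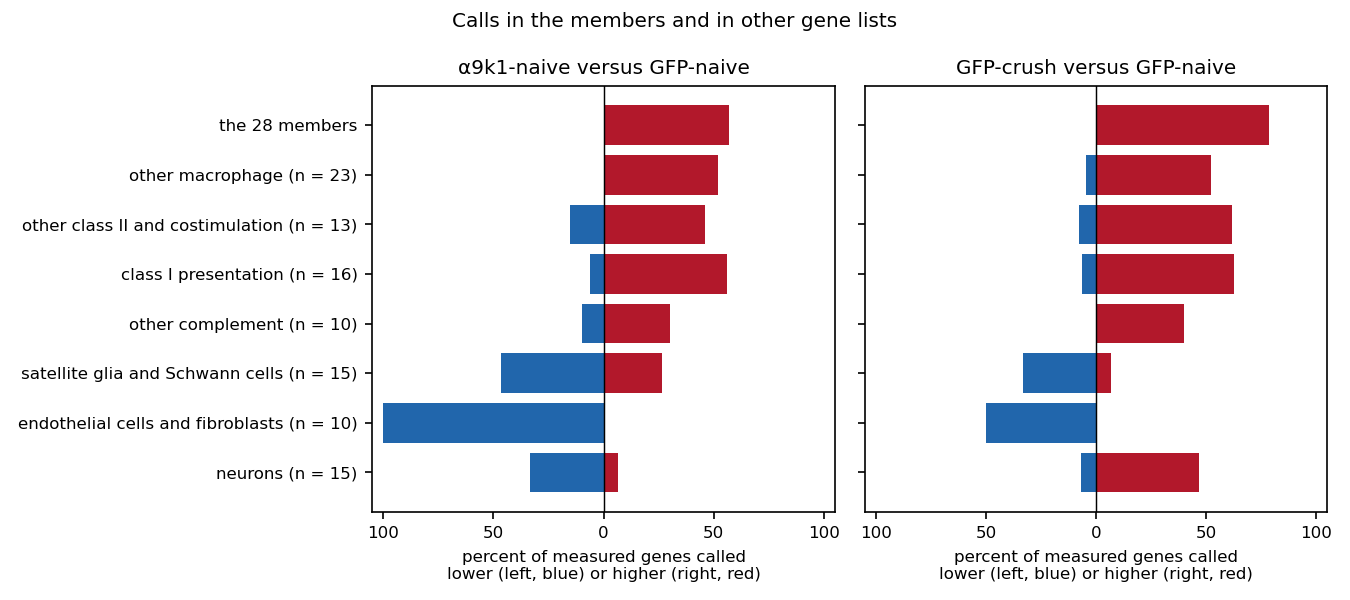
Percent of the measured genes of each list called higher (red, to the right) or lower (blue, to the left) in α9k1-naive versus GFP-naive (left panel) and GFP-crush versus GFP-naive (right panel). The 28 members have no lower call in either panel, and in α9k1-naive all 10 markers of endothelial cells and fibroblasts were called lower.

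Markers of other cell types moved with the same comparisons. Markers of satellite glia and Schwann cells, all 15 measured, had 4 higher and 7 lower in α9k1-naive and 1 higher and 5 lower in GFP-crush. Their summed level on the linear scale ranged from 58145 to 75174 in GFP-naive, 82875 to 117352 in α9k1-naive, 36945 to 46527 in GFP-crush and 24009 to 38069 in α9k1-crush. Apoe, which macrophages also make, rose by 0.89 ± 0.15 in α9k1-naive and changed by -0.93 ± 0.15 in GFP-crush, and the myelin genes Ncmap and Prx had -2.51 ± 0.27 and -2.33 ± 0.30 in α9k1-naive. Apoe made up at most 79.6% of the glial sum in GFP-naive libraries, 91.7% to 93.1% in α9k1-naive, 59.4% to 64.8% in GFP-crush and 59.5% to 69.0% in α9k1-crush as deposited, so the sum follows this gene. Losses in alignment can differ between genes, so such sums and shares describe the deposited values, not the amounts of RNA of a gene against another. Without Apoe the summed level was 12372 to 15362 in GFP-naive, 6381 to 8203 in α9k1-naive, 13010 to 18878 in GFP-crush and 7451 to 13311 in α9k1-crush, and the median log2FC of the 15 genes was -0.49 in α9k1-naive and -0.06 in GFP-crush. Of endothelial and fibroblast markers 10 of 14 were measured, all 10 called lower in α9k1-naive and 5 lower in GFP-crush, with summed levels of 786 to 982 in GFP-naive, 133 to 344 in α9k1-naive, 363 to 488 in GFP-crush and 266 to 384 in α9k1-crush. Neuron markers had 1 higher and 5 lower in α9k1-naive and 7 higher and 1 lower in GFP-crush, and their summed level was 12071 to 15121 in GFP-naive, 7939 to 9894 in α9k1-naive, 17387 to 24035 in GFP-crush and 17242 to 23750 in α9k1-crush. The neurofilament genes Nefl, Nefm and Nefh had -2.10, -2.42 and -2.32 in α9k1-naive and 1.02, 0.96 and 0.79 in GFP-crush. Rbfox3, Elavl4, Stmn2, Avil and Scn10a were called in neither comparison. In α9k1-crush versus α9k1-naive, 6 glial markers were called higher and 4 lower, 6 of the 10 endothelial and fibroblast markers higher and 0 lower, and 4 neuron markers higher and 0 lower, among them Ncmap at 3.32 ± 0.48, Fabp7 at -2.28 ± 0.26, the collagen gene Col3a1 at 2.29 ± 0.40 and the neurofilament gene Nefl at 2.73 ± 0.42. In the interaction 3 glial markers were called higher and 1 lower, 5 endothelial and fibroblast markers higher and 0 lower, and 2 neuron markers higher and 0 lower. Their part in the results on the members was not tested.

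Other leukocytes were covered by few genes. Of T cell markers 2 of 8 were measured, with Cd4, which rat macrophages also carry, called at 0.87 ± 0.33 in α9k1-naive. Of B and plasma cell markers 2 of 8 were measured, and both were called lower in α9k1-naive, Igkc at -4.60 ± 1.05 and Ighm at -0.97 ± 0.33. Igkc was also called lower in GFP-crush, at -3.19 ± 1.05. No neutrophil marker of 9 and 1 of 6 mast cell markers, Kit, was analysed. The summed level of the 28 members themselves ranged from 1490 to 1932 in GFP-naive, 3249 to 4349 in α9k1-naive, 4251 to 6604 in GFP-crush and 3363 to 5325 in α9k1-crush. Every library of the other 3 groups was thus above every GFP-naive library, while these 3 groups overlapped. Cd74 made up 19.3% to 23.7% of this sum in GFP-naive and 37.5% to 39.4% in GFP-crush, and without it the sum was 1202 to 1473 in GFP-naive, 2230 to 2898 in α9k1-naive, 2656 to 4024 in GFP-crush and 2246 to 3461 in α9k1-crush. Both sums hold Lgals3, which sensory neurons also make. Its log2 means were 9.11 in GFP-naive, 9.25 in α9k1-naive, 9.07 in GFP-crush and 8.56 in α9k1-crush. The summed level of the 23 further macrophage genes was 1461 to 1741 in GFP-naive and 3247 to 4058 in α9k1-naive. It was 1402 to 1933 in GFP-crush, which overlapped GFP-naive, and 1201 to 2234 in α9k1-crush. Among these genes Spp1 had the highest mean in every group, at 10.45, 11.64, 10.29 and 10.18 on the log2 scale in the same order. The sum therefore follows this gene. Of the 23 genes, 12 were called higher and 1 lower in GFP-crush versus GFP-naive, with a median log2FC of 1.02.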

How the data were processed

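RNA-seq of 19 libraries of sorted GFP-positive DRG cells was analysed from the deposited tables. According to the methods, libraries were made with a SMART-Seq v4 kit, which does not mark strand, and reads were aligned to the mouse genome (mm10) with STAR and counted with Salmon. The deposited expression values are log2 values per gene, which the authors made by removing genes with few reads, adding a small pseudocount and normalizing with cqn for gene length and depth. The authors' deposited table of library metrics, which the labels credit to Picard, holds counts of reads and bases, fractions of reads, percent dropout and ratios of coverage. In it, names and values of the columns on duplicates do not match, since the percent of duplicates holds whole counts and the library size holds fractions. The deposited gene table also holds the authors' fold changes and p-values, which were not used.

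The expression table has no gene names, and its rows were named by the order of the gene table. In this order 11 of 15 neuron markers were in the top 10% of genes by mean, against 3 of 15 with the rows shifted by 1, and the row of Fermt1 ranked 1 of 12629 for α9k1-crush minus GFP-crush. Reads from rat would align to the mouse genome with losses that differ between genes (3.87% to 4.05% of aligned bases were mismatches), so levels of members were not ranked against each other, and sums and shares over genes describe the deposited values only.

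Groups came from the sample titles. One limma fit (limma 3.58.1, R 4.3.3) took all 19 libraries, 4 group means and the first 3 principal components of 48 scaled metrics (45.9%, 24.1% and 11.5% of their variance), as in the study's methods, whose batch term could not be added since no batch was given in the sources used here. Tests were 2-sided, with Benjamini-Hochberg adjustment over 12629 genes and a threshold of 0.1. Exact permutation tests of the differences in means were also run (2-sided). Depth was 36.4 to 87.6 M read pairs. The counting error of single values is unknown from normalized values, and the SD between libraries includes it. Summed levels are sums of 2 to the power of the log2 values. Promoters are the 250 bases before RefSeq gene starts (GRCm38.p6).

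Values in each library, or the lowest, median and highest for the 6 of α9k1-naive, are given for all members called in a comparison, and genes of other lists are named where they were among the 3 largest called changes of their list. Results on some genes that this rule names are not reported here. The members and lists were chosen with earlier results of these data known. Alternatives were fits without covariates, with only the groups compared, with the lowest 25% of genes left out, with median-centred samples, with quantile normalization, with the replicate number as a block, and without each library in turn. Same-numbered libraries did not deviate together, so the numbers were not taken as pairs.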

Additional observations from a re-analysis of the deposited data

Results flagged for a closer look

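In 5 of 112 groups of 4 to 6 libraries, 1 library lay far from the others for a member by Dixon's criterion, and chance flags about 1 in 20 groups. C1qa of GFP-crush 2 was low, at 6.76. C1qc of α9k1-naive 2 was low, at 5.49. H2-Ab1 of GFP-naive 5 was low, at 5.69. Laptm5 of α9k1-naive 6 was low, at 3.67. Csf1r of α9k1-crush 2 was high, at 4.62.

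The α9k1 effect differed between the crushed and the intact state by the interaction term of the limma fit for 5 members. It was lower after crush for Ms4a7 (-3.03), H2-Aa (-2.12), Cd74 (-2.01) and H2-Eb1 (-1.91), on the log2 scale. For Cybb it was higher after crush (2.60), and this call was lost without covariates. The calls of Cd74 and H2-Eb1 were lost with quantile normalization, and all 5 were lost with the replicate number as a block. H2-Eb1 was called in 8 of the 19 fits that left out 1 library.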

How the results depend on the processing

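No member called at equal covariates changed its direction in any alternative, and of the values of single called members under alternatives 282 kept their side of the threshold and 39 did not. The 16 members called in α9k1-naive versus GFP-naive numbered 15 to 18 when 1 library was left out (0 to 0 lower, median log2FC 0.81 to 1.29), and the 22 in GFP-crush versus GFP-naive 20 to 22 (0 to 0 lower, median 1.20 to 1.33). In α9k1-crush versus GFP-crush, leaving out 1 library gave 0 to 1 higher, 0 to 0 lower and medians of -0.19 to 0.53, in α9k1-crush versus α9k1-naive 1 to 4 higher, 0 to 1 lower and 0.41 to 0.85, and in the interaction 0 to 1 higher, 1 to 7 lower and -0.89 to -0.56. Shares of all genes are not given for the fits without 1 library.

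Without covariates, the counts were 6 higher and 7 lower in α9k1-crush versus GFP-crush, 10 higher and 2 lower in α9k1-crush versus α9k1-naive (28.5% and 27.1% of all genes), and 0 higher and 17 lower in the interaction, whose median was -1.30. With only the groups compared, 18 of the 22 calls in GFP-crush versus GFP-naive were kept, 0 members and 0 of all genes were called in α9k1-crush versus GFP-crush (median 0.98), and 0 higher and 0 lower in α9k1-crush versus α9k1-naive (median -0.0159; 0.507% and 1.09% of all genes), where fewer libraries enter. Leaving out the lowest 25% of genes, which takes out 6 members, Cybb, Ms4a7, Spi1, Fcgr2b and Mpeg1 among them, left 0 higher in α9k1-crush versus GFP-crush and 0 higher in the interaction, and 14 of the 16, 18 of the 22 and 3 of the 4 calls of α9k1-naive versus GFP-naive, GFP-crush versus GFP-naive and the lower interaction. Quantile normalization gave 0 lower in α9k1-crush versus α9k1-naive and kept 2 of the 4 lower interaction calls. The cause of the other moves was not tested.

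Replicate numbers are shared by the groups but do not pair the libraries. Over 25 pairs with the same number the deviations correlated at -0.27 to 0.15 (median 0.02), and 4 were over 0.1. With the replicate number as a block, the median in α9k1-naive versus GFP-naive was 1.35 with 17 called higher (8.96% of all genes), GFP-crush versus GFP-naive had 20 higher (6.88%), and 0 members were called higher or lower in α9k1-crush versus GFP-crush, in α9k1-crush versus α9k1-naive and in the interaction, where 0.42%, 1.23% and 0.15% of all genes were called higher and 0.0317%, 1.39% and 0.0554% lower.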
